A study of Mus musculus with 2 samples.

Results

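Genes switched on by the transcription factor p53, together with the stress cytokine gene Gdf15, were followed across the cell types of the mouse pituitary at 2 ages. The 10 genes were taken by symbol from the gene list of the count files, and all 10 were found among 32285 listed genes: Cdkn1a, Mdm2, Ccng1, Phlda3, Bax, Gadd45a, Sesn2, Zmat3, Plk2 and Gdf15. The study asked how ageing changes the transcriptome of single pituitary cells. Whole glands of male C57BL/6 mice, an inbred strain, were dissociated and sequenced in droplets, with 10 glands pooled into 1 library from young animals of 2 months and 10 glands into 1 library from old animals of 20 months. No genotype or treatment separates the groups, which differ in age alone as far as the labels say. Pooling leaves 1 library per age, so no difference between ages has a replicate check, and differences between the animals, the dissociations and the libraries cannot be told apart from age. All intervals below are at 95% and cover counting error only.

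p53 is held at low levels by Mdm2, a ubiquitin ligase that is itself a p53 target, and accumulates when DNA is damaged or growth signals are disturbed. Its targets then halt the cell cycle, repair DNA, restrain growth signalling or start apoptosis. Several of them also answer to other inputs: Cdkn1a, Gadd45a and Plk2 respond to growth factor and stress signals, and Gdf15 is induced by p53 and by the integrated stress response, the pathway that slows translation through phosphorylated eIF2. Gdf15 and Cdkn1a are widely used as readouts of cellular stress and senescence in ageing tissues.

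The stretches that hold the half-site bound by a p53 dimer, or in Plk2 the cAMP response element, are shown because these motifs are the recognition sequences of p53 and of the factors that answer to cyclic AMP. They are credited to RefSeq promoter windows of build GRCm38.p6, which run from 250 bases before to 50 bases after a gene's start, and 9 of the 10 members had a window, Zmat3 being the exception. The p53 half-site consensus, which reads the same on both strands, was found in 5 of the 11 windows of those 9 genes, and in 8.36% of all 32851 windows. The element TGACGTCA, also the same on both strands, was found in 1 member, Plk2, and in 1.79% of all windows. Each stretch reads 5′ to 3′ on the gene's strand, with the matches in capitals.
Cdkn1a, chr17:29090886-29090957, plus strand: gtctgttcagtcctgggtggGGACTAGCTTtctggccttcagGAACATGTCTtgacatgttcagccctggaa
Mdm2, chr10:117710915-117710964, minus strand: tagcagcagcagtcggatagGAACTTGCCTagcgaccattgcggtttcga
Ccng1, chr11:40755442-40755491, minus strand: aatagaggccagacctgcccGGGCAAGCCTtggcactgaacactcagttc
Bax, chr7:45467070-45467119, minus strand: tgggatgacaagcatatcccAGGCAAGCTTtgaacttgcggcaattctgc
Gadd45a, chr6:67037418-67037467, minus strand: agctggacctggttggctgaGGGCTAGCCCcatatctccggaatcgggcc
Plk2, chr13:110394962-110395009, plus strand: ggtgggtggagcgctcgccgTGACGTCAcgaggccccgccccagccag
The Cdkn1a stretch lies before the upstream of the 2 starts listed for the gene and was the only member window with 2 half-sites, whose first bases lie 73 and 51 bases before that start. A match describes the letters of a window and not binding in these cells.

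The young library held 154510099 UMIs and the old 138427393, a UMI being 1 counted RNA molecule. After filters, 8530 young and 3478 old barcodes remained outside a cluster of free RNA, at median depths of 6318 and 5846 UMIs. That cluster, which had the expression profile of near-empty droplets, held 1 young and 5539 old barcodes and entered no comparison. Classes were named by marker genes and are called by the class followed by "like", and the 10 classes that held 50 cells or more at both ages were compared. Somatotroph-like cells, the growth hormone producers, numbered 3951 young and 1120 old, and different clusters held most of them in the 2 libraries: 1 cluster had 1645 young and 46 old cells, another 32 and 466. Corticotroph-like cells numbered 1262 and 313, stem cell-like 977 and 279, macrophage-like 750 and 416, lactotroph-like 429 and 279, T or NK cell-like 147 and 169, B cell-like 124 and 84, monocyte-like 94 and 80, endothelial cell-like 85 and 78, and pituicyte-like 52 and 91. There were 15 barcode sequences shared by cells of both libraries, and leaving them out is among the alternatives in the closing section. Proliferating cells, of which the young library had 145 and the old 1, could not be compared.

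Levels are given as CPM, the UMI count per 1000000 UMIs of a class without 7 hormone and 13 mitochondrial genes, and describe RNA per unit of other RNA in a class, not per cell. Among the brakes on the cell cycle, Cdkn1a, which encodes the cyclin-dependent kinase inhibitor p21, was highest in monocyte-like cells of both libraries, at 466.5 CPM young and 663.2 CPM old. Somatotroph-like cells came second in both libraries, at 273.1 and 177.4 CPM, outside the intervals of the monocyte-like cells. In the young library corticotroph-like cells at 268.3 CPM could not be told from somatotroph-like cells by their counting intervals. Stem cell-like cells were near the bottom, at 19.65 CPM young and 22.16 CPM old, below the 142.1 and 106.8 CPM found in near-empty droplets of at most 100 UMIs. Old lactotroph-like cells, at 22.69 CPM, were at the same low level as the stem cell-like cells.

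Gadd45a, a growth arrest and DNA damage gene, was highest, among the classes compared, in the 2 most abundant endocrine classes. It stood at 138.8 CPM in young somatotroph-like and 110.9 CPM in young corticotroph-like cells, and at 77.04 and 76.83 CPM in the old ones, whose intervals overlap. Neutrophil-like cells, too few to compare, stood at 177 CPM from 25 young and 195.6 CPM from 66 old cells. Ccng1, which encodes cyclin G1, was highest in somatotroph-like cells of the young library at 89.55 CPM, with lactotroph-like cells second at 47.96 CPM. When old, somatotroph-like and corticotroph-like cells shared the top at 62.81 and 62.73 CPM. The levels of Mdm2 ran from 30.02 CPM in stem cell-like to 72.54 CPM in somatotroph-like cells when young, and from 31.78 to 66.98 CPM in the same classes when old.

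The apoptosis and survival genes were highest in endothelial cell-like cells of the young library. Bax, the pore-forming protein of mitochondrial apoptosis, reached 242.6 CPM in young endothelial cell-like cells, above the 128.2 CPM of B cell-like cells that came second. In the old library monocyte-like cells at 151.6 CPM and endothelial cell-like cells at 110.7 CPM led, with overlapping intervals. Phlda3, which restrains Akt signalling, was also highest in young endothelial cell-like cells at 79.21 CPM, ahead of somatotroph-like cells at 34.21 CPM. In the old library pituicyte-like cells at 22.1 CPM and endothelial cell-like cells at 21.15 CPM led, with overlapping intervals. Among classes too small to compare, fibroblast-like cells stood higher still, at 255.5 CPM from 31 young and 218.6 CPM from 39 old cells, as did oligodendrocyte-like cells at 170.5 CPM from 38 old cells.

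The remaining members led in other classes. Sesn2, a sestrin that signals low amino acids to the growth regulator mTORC1, was highest, among the classes compared, in corticotroph-like cells at 73.69 CPM young and 50.4 CPM old, against 15.76 and 21.66 CPM in monocyte-like cells, the second class. Neutrophil-like cells, too few to compare, stood higher at 115.1 CPM from 25 young and 66.67 CPM from 66 old cells. Plk2, a polo-like kinase induced early after stimulation, was highest in endothelial cell-like cells at 297 CPM young and 533.7 CPM old, with the runner-up at 100.8 CPM in young B cell-like and 139.4 CPM in old monocyte-like cells. Zmat3, an RNA-binding zinc finger protein, was highest, among the classes compared, in young lactotroph-like cells at 34.51 CPM, and led in old corticotroph-like and somatotroph-like cells at 27.84 and 27.65 CPM, which could not be told apart. Melanotroph-like cells, too few to compare, stood at 31.5 CPM from 41 young and 42.69 CPM from 141 old cells. Monocyte-like cells held 0 young and 2 old UMIs of it. Gdf15 was highest in macrophage-like cells of the young library, at 143.5 CPM, where monocyte-like cells came second at 22.06 CPM. In the old library lactotroph-like cells at 70.34 CPM and monocyte-like cells at 59.55 CPM held the top, with overlapping intervals, and macrophage-like cells had 31.22 CPM.

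**Figure D1:**
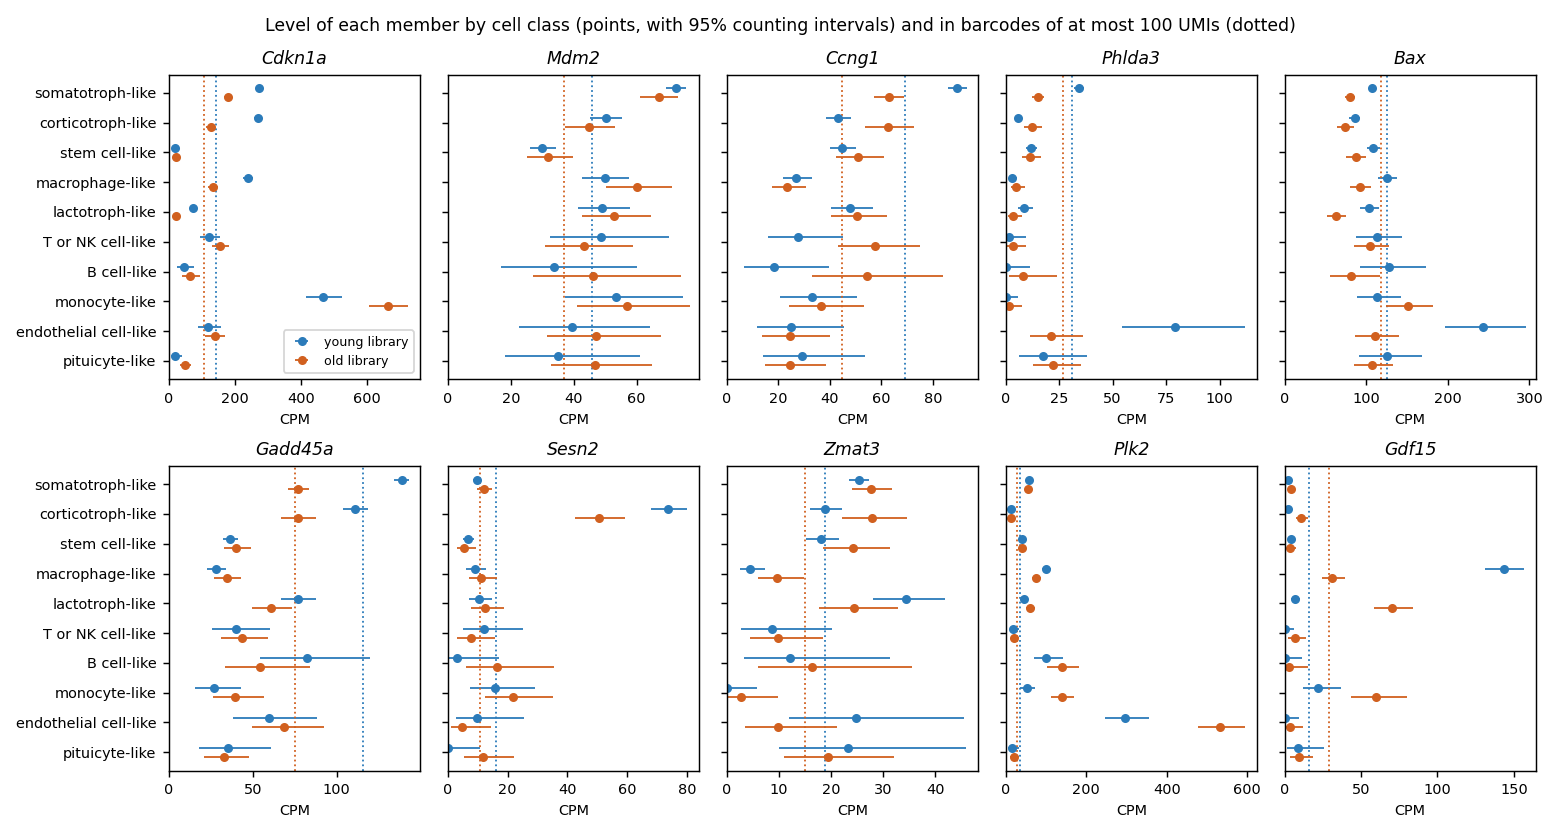
Level of each of the 10 genes in CPM (horizontal axes, linear) in 10 cell classes (vertical axes), young in blue and old in orange, with 95% counting intervals. Dotted lines give the level in near-empty droplets (100 UMIs or fewer) at the same age, and Sesn2 in corticotroph-like and Plk2 in endothelial cell-like cells stand to the right of the other 9 classes.

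Between the ages, members were compared by a fixed rule: at least 1.5-fold different CPM and at least 20 UMIs in the class over both libraries. Of 100 pairs of member and class, 85 had enough UMIs. In 13 of them the old library was lower, in 12 higher, and 60 lay under 1.5-fold. Of the 25 pairs past 1.5-fold, 22 had a counting interval of the ratio that left out 1, and 3 did not: Phlda3 in macrophage-like, and Bax and Gadd45a in B cell-like cells. Under the alternatives of the closing section 14 of the 25 stayed past 1.5-fold in every one that gave a value. That count covers ratios of CPM and not the shares of cells at equal depth, treated further below. Among the 14, the share ratio of Cdkn1a in corticotroph-like cells ran from 0.273 to 0.580 over all settings. That of Ccng1 in B cell-like cells ran from 0.738 to 3.44, and that of Zmat3 in macrophage-like cells from 0.601 to 7.21. Mdm2 was past 1.5-fold in none of the 10 classes, with ratios of old over young between 0.890 and 1.38. Since all genes of a class share a total, ratios are relative to that total. The median log2 ratio over all measured genes was 0.23 in macrophage-like and 0.18 in the T or NK cell-like cells, 0.165 in B cell-like, 0.12 in lactotroph-like and 0.105 in monocyte-like cells, and a ratio of 1 there lies that far below the middle of all genes.

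**Figure D2:**
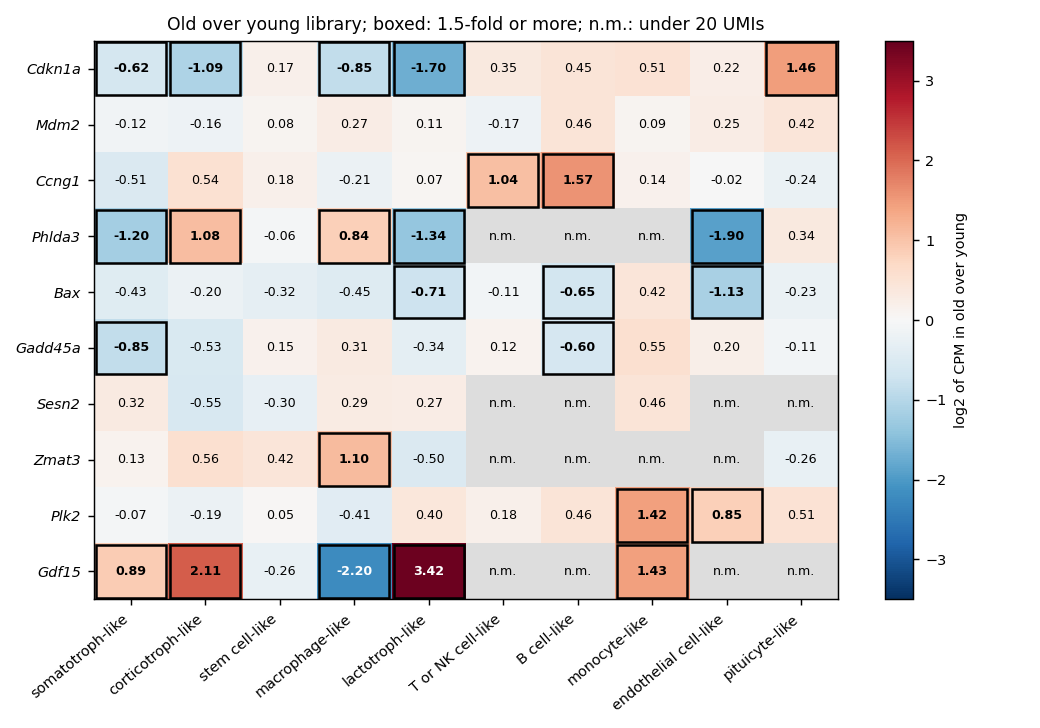
Log2 of the CPM ratio of old over young for 10 genes (rows) in 10 cell classes (columns), red where the old library was higher and blue where it was lower. Boxes mark the 25 pairs past 1.5-fold, 13 lower and 12 higher, grey cells had under 20 UMIs, and Gdf15 holds both the lowest value, in macrophage-like cells, and the highest, in lactotroph-like cells.

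In somatotroph-like cells 3 of 10 members were lower in the old library and 1 was higher, where 9.21% of all 14707 genes measured there were lower and 11.8% higher. Cdkn1a went from 273.1 CPM (7304 UMIs) to 177.4 CPM (1322 UMIs), a ratio of 0.650 (interval 0.612 to 0.689). Gadd45a went from 138.8 to 77.04 CPM, a ratio of 0.555 (0.508 to 0.606), and Phlda3 from 34.21 to 14.9 CPM, a ratio of 0.435 (0.354 to 0.531). All 3 were lower in each of the 4 somatotroph-like clusters: the ratios per cluster lay between 0.486 and 0.677 for Cdkn1a, 0.481 and 0.760 for Gadd45a, and 0.215 and 0.642 for Phlda3. The interval held 1 in 1 cluster each for Phlda3 (0.308 to 1.21) and Gadd45a (0.563 to 1.05). With all UMIs as the total, growth hormone included, Cdkn1a at 0.781 and Gadd45a at 0.667 no longer passed 1.5-fold, while Phlda3 at 0.523 did. Cdkn1a also lay under 1.5-fold, at 0.713, with each library clustered alone. Gadd45a also differed between the libraries in near-empty droplets of at most 100 UMIs, with a ratio of 0.649. In those of 500 to 900 UMIs its ratio was 0.537. With the estimated RNA of either set of droplets subtracted, the somatotroph-like ratio of Gadd45a stayed past 1.5-fold. Any further part of these droplets in that value was not tested. Gdf15 was higher, at 2.244 CPM (60 UMIs) young and 4.161 CPM (31 UMIs) old, both below the 15.69 and 28.75 CPM of near-empty droplets. With its clusters given their young weights the ratio was 1.00 in place of 1.86.

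Corticotroph-like cells, which make the hormone that drives the adrenal cortex, had 1 of 10 members lower and 2 higher, beside 7.92% and 11.8% of all genes. Cdkn1a went from 268.3 CPM (2075 UMIs) to 126.2 CPM (358 UMIs), a ratio of 0.470 (0.419 to 0.526), and it was 0.476 and 0.432 in the 2 corticotroph-like clusters. Immediate early genes, a fast transcriptional answer to stimulation and to tissue handling, were lower here as well: 12 of 19 were lower in the old library and 0 higher, with Fos at 11360 and 7557 CPM, Jun at 7544 and 4976 CPM and Junb at 9548 and 4971 CPM. Pomc, a hormone gene on both the corticotroph and the melanotroph marker list, is left out of the following sums. The summed level of the other corticotroph markers was 1162 CPM young and 550.5 CPM old, and that of the other melanotroph markers 64.39 and 124.4 CPM. The sum of 6 erythroid markers was 497 and 176.2 CPM. With Pomc counted, 0 of the 7 corticotroph and 0 of the 6 melanotroph markers were at 0 UMIs in either library. The part of these genes in the Cdkn1a value was not tested. Phlda3 stood at 5.818 CPM (45 UMIs) young and 12.34 CPM (35 UMIs) old, but 1 old cell held 17 of the 35 UMIs and the ratio without the top cell of each library was 1.34 in place of 2.12. Gdf15 stood at 2.456 CPM (19 UMIs) and 10.57 CPM (30 UMIs), again below near-empty droplets, with 86.7% of the old UMIs in 5 of 313 cells. Without the 5 top cells of each library the Gdf15 ratio was 1.85 in place of 4.30.

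Stem cell-like cells had 0 of 10 members past 1.5-fold in either direction, where 6.33% of 12907 genes were lower and 10.9% higher. Their ratios ran from 0.80 for Bax to 1.34 for Zmat3. Of the 10 classes these cells had the lowest level of Mdm2 in both libraries.

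In macrophage-like cells 2 members were lower and 2 higher, beside 4.28% and 22.1% of all genes. Cdkn1a went from 239.2 CPM (850 UMIs) to 132.7 CPM (289 UMIs), a ratio of 0.555 (0.484 to 0.635). Gdf15 went from 143.5 CPM (510 UMIs) to 31.22 CPM (68 UMIs), a ratio of 0.218 (0.166 to 0.281), the lowest among all measured pairs. In 1 of the 3 macrophage-like clusters Gdf15 had 201.7 CPM over 453 young cells and 27.82 CPM over 216 old cells, a ratio of 0.138 (0.0932 to 0.198). The second cluster had 54.11 and 43.85 CPM, a ratio of 0.810 (0.518 to 1.25), and the remaining one held 0 and 1 UMIs. The top old cell held 24 of the 68 UMIs. Zmat3 and Phlda3 were higher from few UMIs: Zmat3 at 4.503 CPM (16 UMIs) and 9.641 CPM (21 UMIs), and Phlda3 at 2.814 CPM (10 UMIs) and 5.05 CPM (11 UMIs). Phlda3 lay under 1.5-fold in 4 of 19 alternatives and lay at 0.636 when doublets were kept.

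Lactotroph-like cells, the prolactin producers, had 3 members lower and 1 higher, beside 8.57% and 18.4% of all genes. Cdkn1a went from 73.5 CPM (213 UMIs) to 22.69 CPM (40 UMIs), a ratio of 0.309 (0.2145 to 0.434), the lowest Cdkn1a ratio of the 10 classes. Bax went from 103.2 to 62.97 CPM, a ratio of 0.610 (0.486 to 0.761), and stood at 0.684 with all UMIs as the total. Phlda3 had 25 UMIs young and 6 old, a ratio of 0.395 (0.132 to 0.985). Gdf15 went from 6.556 CPM (19 UMIs) to 70.34 CPM (124 UMIs), a ratio of 10.7 (6.59 to 18.4), the highest of all measured pairs.

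The Gdf15 UMIs of the old lactotroph-like cells came from few cells. Of 279 cells, 16 held at least 1, and 3 cells held 46, 34 and 27 of the 124 UMIs. Those 3 cells had 32319, 32252 and 37515 UMIs in all, against a class median of 4981, and gave 12.4%, 20.6% and 6.01% of their UMIs to prolactin. Without the 5 top cells of each library, 2 young UMIs and 12 old UMIs remained, at 0.690 and 6.81 CPM of the class total. The counting interval given above treats UMIs as independent and does not carry this clustering in cells. When each library was clustered alone, the lactotroph-like ratio was 0.434. In young macrophage-like cells, by contrast, 68 of 750 cells held Gdf15, 46 of them at least 3 UMIs, and the top cell held 42 of the 510 UMIs.

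**Figure D3:**
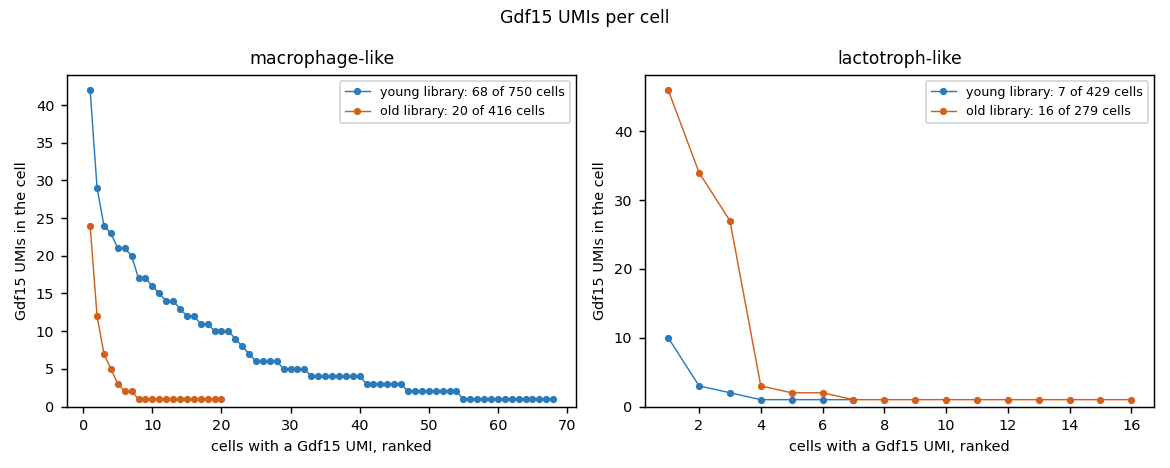
Gdf15 UMIs (vertical axis) in each cell that held any, ranked from the highest (horizontal axis), in macrophage-like cells (left) and lactotroph-like cells (right), young in blue and old in orange. The young macrophage-like curve declines over 68 cells, while the old lactotroph-like curve drops from 27 UMIs in the cell ranked 3 to 3 UMIs in the next.

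In the 3 smaller immune classes Cdkn1a lay under 1.5-fold. In T or NK cell-like cells 0 members were lower and 1 was higher, beside 5.40% and 24.6% of all genes, and 6 of 10 members had enough UMIs. That member was Ccng1, at 27.82 CPM (16 UMIs) and 57.4 CPM (53 UMIs), a ratio of 2.06 (1.16 to 3.87). Cdkn1a stood at 121.7 CPM and 154.9 CPM there. B cell-like cells had 2 members lower and 1 higher, beside 8.39% and 27.8%: Ccng1 had 6 and 20 UMIs, a ratio of 2.97 (1.15 to 9.04), and the ratios of Bax at 0.637 and Gadd45a at 0.660 had intervals that held 1. Monocyte-like cells had 0 lower and 2 higher, beside 7.67% and 17.8%. There Plk2 went from 52.01 CPM (33 UMIs) to 139.4 CPM (103 UMIs), a ratio of 2.68 (1.795 to 4.10), and Gdf15 from 22.06 CPM (14 UMIs) to 59.55 CPM (44 UMIs). For Gdf15, 5 of 94 young cells held 92.9% of the young UMIs and 5 of 80 old cells 90.9% of the old. Its ratio was 1.24 with a mitochondrial limit of 25%, in place of 2.70. Cdkn1a in monocyte-like cells, at 466.5 and 663.2 CPM, gave a ratio of 1.42 (1.23 to 1.65).

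Endothelial cell-like cells had 2 members lower and 1 higher, beside 17.0% of genes in each direction. Bax went from 242.6 CPM (98 UMIs) to 110.7 CPM (68 UMIs), a ratio of 0.456 (0.330 to 0.628), and Phlda3 from 79.21 CPM (32 UMIs) to 21.15 CPM (13 UMIs), a ratio of 0.267 (0.129 to 0.523). With each library clustered alone Phlda3 stood at 1.16. Plk2 went from 297 CPM (120 UMIs) to 533.7 CPM (328 UMIs), a ratio of 1.80 (1.45 to 2.23), and at 1.285 it lay under 1.5-fold with each library clustered alone. All 18 measured immediate early genes were higher in the old endothelial cell-like cells, Fos at 2282 and 6289 CPM. The sum of 8 stem cell markers was 1458 and 4166 CPM in these cells, and that of 7 endothelial markers, of which 1 was at 0 UMIs in each library, was 10560 and 8657 CPM. The part of these genes in the Plk2, Bax and Phlda3 values was not tested. Pituicyte-like cells, glia of the posterior lobe, had 0 lower and 1 higher, beside 10.7% and 21.4%: Cdkn1a had 6 young UMIs and 37 old, a ratio of 2.75 (1.15 to 7.98). In these cells, too, 12 of 17 immediate early genes were higher, with Fos at 1763 and 4055 CPM.

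The share of cells that carry a gene was taken at equal depth, with each cell thinned to 2000 UMIs. It is set beside the share that free RNA would give. A cell made only of the free RNA in droplets of at most 100 UMIs would show Cdkn1a in 13.5% of cases young and 12.2% old. By genes foreign to a class, free RNA made up only 0.0 to 14.4% of its UMIs with that profile and 0.0 to 17.3% with the profile of droplets of 500 to 900 UMIs. At those estimates free RNA would bring a Cdkn1a UMI to at most 2.08% of the cells of any class, and the intervals of all 20 Cdkn1a shares of class and library lay above their own value. The estimate is the lowest over the foreign genes. It was 0.0 in young monocyte-like and young pituicyte-like cells, where a foreign gene had no UMI. In those cells any share above 0 lies above it, so the comparison decides nothing there. Cdkn1a was found in 18.2% of young somatotroph-like cells (17.0% to 19.4%) and 13.75% of old ones (11.8% to 15.9%), in 23.7% and 13.7% of corticotroph-like cells and in 20.1% and 9.86% of macrophage-like cells. Stem cell-like cells gave the lowest shares of the 10 classes, 3.275% and 2.51%. The lactotroph-like shares were 7.925% and 3.58%. Before thinning, at median depths of 9655 and 6650 UMIs, a Cdkn1a UMI was found in 43.4% of the young somatotroph-like cells and 33.2% of the old, against 8.60% and 10.75% of stem cell-like cells at 6386 and 7992 UMIs. Monocyte-like cells had the highest shares of the 10 classes, at 47.9% and 53.75%.

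Among corticotroph-like cells Sesn2 was carried by 10.9% when young and 7.67% when old. Monocyte-like cells came next among the compared classes, at 4.255% and 7.50%. The estimated free RNA would bring Sesn2 to at most 0.281% of the cells of any class, and a wholly free RNA cell would show it in 1.64% of cases young and 1.31% old. Plk2 was carried by 23.5% of young and 50% of old endothelial cell-like cells, against at most 0.657% from the estimated free RNA. With another random seed these Plk2 shares were 31.8% and 43.6%. Their ratio of old over young was 2.125 here and between 1.37 and 1.66 under the alternatives of the closing section. Gdf15 was carried by 6.67% of young and 2.40% of old macrophage-like cells, where the estimated free RNA would give at most 0.2315% and 0.167%. Among lactotroph-like cells 0.699% carried it when young and 2.87% when old, and among somatotroph-like cells 0.253% and 0.893%. Under the alternatives the ratio of these Gdf15 shares ran from 0.769 to 4.61 in lactotroph-like and from 0.402 to 3.83 in somatotroph-like cells. The interval of Gdf15 lay above the value for the estimated free RNA in 11 of the 20 shares of class and library, that of Phlda3 in 13 and that of Gadd45a in 19. These counts include any share above 0 in young monocyte-like and young pituicyte-like cells, where the estimate was 0.0.

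**Figure D4:**
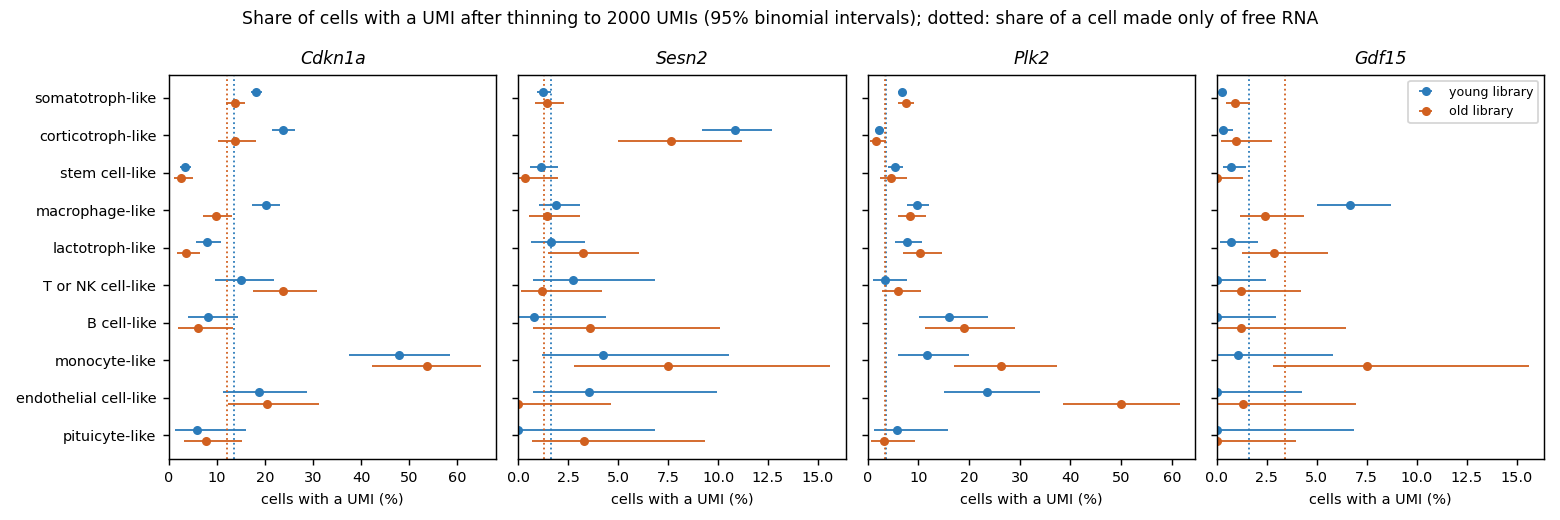
Share of cells with at least 1 UMI of Cdkn1a, Sesn2, Plk2 and Gdf15 after thinning each cell to 2000 UMIs, in percent (horizontal axes), in 10 classes (vertical axis), with exact 95% binomial intervals, young in blue and old in orange. Dotted lines give the share of a cell made only of free RNA. Classes to the right of them include monocyte-like cells for Cdkn1a, corticotroph-like for Sesn2, endothelial cell-like for Plk2 and young macrophage-like for Gdf15.

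Whether the targets travel together in single cells was read from cells with and without a Cdkn1a UMI after thinning. Young somatotroph-like cells split into 718 with and 3233 without, at mean depths of 13569 and 12860 UMIs. Before thinning 1715 of the 3951 cells held a Cdkn1a UMI, so many cells counted as without had lost theirs in thinning. The CPM of both groups come from their full counts. In the cells with Cdkn1a 6 of 9 other members were at least 1.5-fold higher, where 3.03% of all 14169 genes were. Phlda3 stood at 83.11 CPM with and 22.11 CPM without, a ratio of 3.76 (3.29 to 4.29), which 6 of the 14169 genes exceeded. Ccng1 stood at 152.3 and 74.03 CPM, a ratio of 2.06 (1.89 to 2.24), and Bax at 172.4 and 91.06 CPM, a ratio of 1.89 (1.75 to 2.05). Sesn2 and Zmat3 had ratios of 2.02 and 1.585. Gdf15 had 25 UMIs with and 35 without, a ratio of 2.89 that became 4.81 without its top cell and lay between 7.66 and 10.4 after thinning to 1000 or 4000 UMIs or without Malat1-poor barcodes. Mdm2 at 1.35 and Plk2 at 1.295 lay under 1.5-fold, and Gadd45a did not differ beyond its counting interval at 0.986 (0.908 to 1.07).

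The same cells were also richer in p53 targets outside the 10 members. Of 24 measured genes of a list of 25, 9 were at least 1.5-fold higher and 0 lower: Aen, Bbc3, Fas, Tnfrsf10b, Eda2r, Ephx1, Pidd1, Psrc1 and Dcxr. Pidd1, with 10 UMIs with and 25 without, had an interval that held 1 (0.693 to 3.48). Fas had 11 and 14 UMIs, and without its top cell its interval held 1 as well (0.993 to 6.45). Eda2r, a member of the tumour necrosis factor receptor family, stood at 10.93 and 1.819 CPM, a ratio of 6.01 (3.94 to 9.26). Psrc1 stood at 5.465 and 1.12 CPM, a ratio of 4.88 (2.74 to 8.76). They ranked 2 and 3 of all genes, after Snai1 with 22 and 9 UMIs, a gene named after its value was seen. Bbc3, which encodes the apoptosis activator PUMA, had a ratio of 1.76 (1.475 to 2.09). By comparison, 0 of 19 immediate early genes, 0 of 17 integrated stress response genes and 0 of 12 genes of p53 and its regulators were 1.5-fold higher in those cells, and 2 of the stress response genes, Nupr1 and Eif2ak4, were lower.

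Old somatotroph-like cells split into 154 with and 966 without Cdkn1a, with 2 of 9 members higher against 4.96% of genes. They were Phlda3, at 45.46 and 8.973 CPM with a ratio of 5.07 (3.43 to 7.49), and Ccng1, at 95.89 and 56.4 CPM with a ratio of 1.70 (1.37 to 2.10). Of the other p53 targets 5 of 21 were higher: Bbc3, Tnfrsf10b, Ephx1, Dcxr and Zfp365. The intervals of Tnfrsf10b (0.646 to 3.34) and Zfp365 (0.739 to 3.01) held 1. Within the 3 young clusters that had enough UMIs, Phlda3 stayed past 1.5-fold at 3.06, 3.43 and 3.42 and Ccng1 at 1.957, 1.97 and 2.35. In 1 of them, of 1264 cells, Bax at 1.15 (0.808 to 1.60), Sesn2 at 0.867 (0.375 to 1.78), Zmat3 at 1.215 and Gdf15 at 0.893 lay under 1.5-fold, and in another Zmat3 did at 1.05. In the old clusters Phlda3 had enough UMIs in 1, at 5.64, and Ccng1 stood at 1.62, 5.03 and 1.42. In young corticotroph-like cells 1 of 8 members was higher, Phlda3 at 3.45 (1.84 to 6.54), beside 4.24% of genes. In old corticotroph-like cells 5 of 9 were, beside 10.3%: Phlda3 at 6.25, Gdf15 at 4.61, Ccng1 at 2.61, Zmat3 at 1.91 and Bax at 1.635. Those old cells were 43 with and 270 without, and 1 cell with Cdkn1a held 17 of the 35 Phlda3 UMIs. When the cell of most UMIs was left out for each gene in turn, 0 of those 5 old corticotroph-like members remained past 1.5-fold. Phlda3 then stood at 0.696 (0.0776 to 2.96, from 2 UMIs with and 16 without), Gdf15 at 1.04, Ccng1 at 1.36, Zmat3 at 0.864 and Bax at 1.42. Sesn2, at 1.46 with all cells, stood at 1.52. In the 3 other splits Phlda3 stayed past 1.5-fold under that removal, at 3.70 in young and 4.59 in old somatotroph-like and 2.36 in young corticotroph-like cells. The member count stayed at 6 in young and 2 in old somatotroph-like cells, while the other p53 targets went from 5 to 3 in the old ones. The split rests on a random thinning, and the old somatotroph-like count was 4 of the members with another random seed and 5 after thinning to 1000 UMIs, while the young one stayed at 6 in all 6 alternatives. Whether the splits differ between the ages was not tested. The mean depths of the old somatotroph-like cells differed more than those of the young, at 12417 UMIs with and 10332 without.

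**Figure D5:**
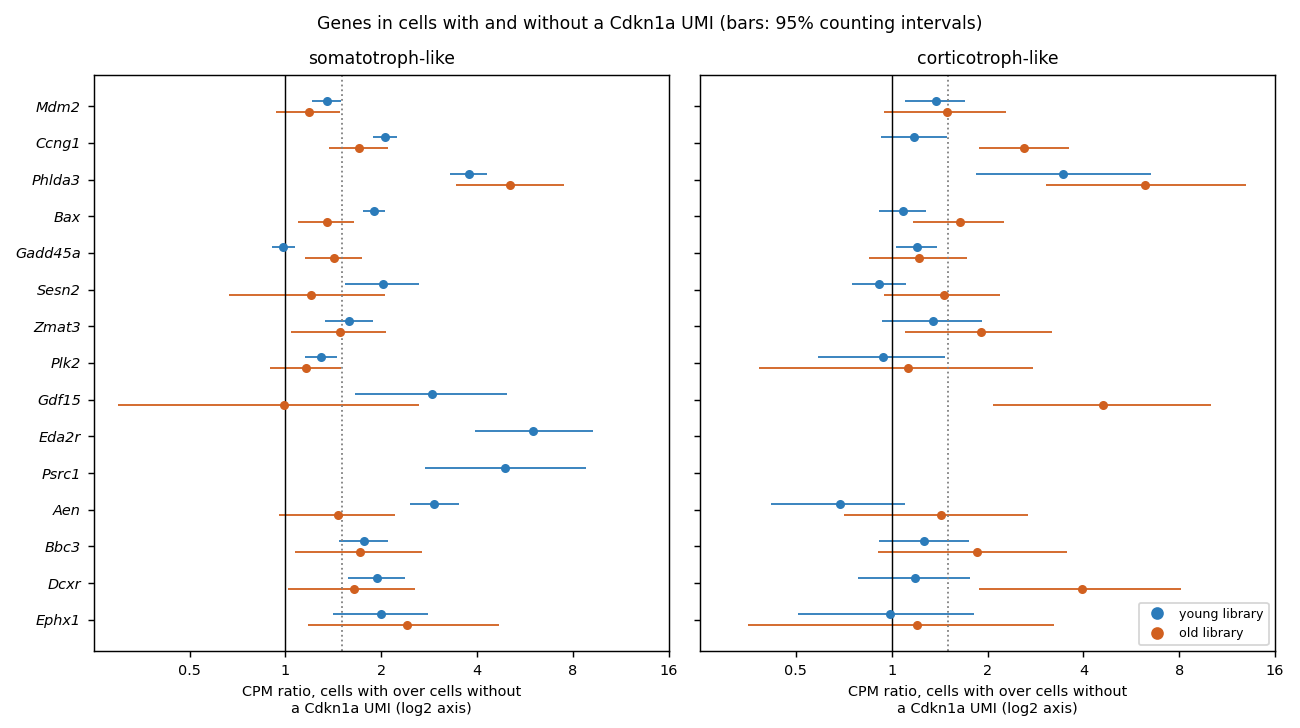
Ratio of CPM in cells with over cells without a Cdkn1a UMI (horizontal axis, log2 scale) for the other 9 members and 6 further p53 targets (vertical axis), in somatotroph-like (left) and corticotroph-like cells (right), young in blue and old in orange, with 95% counting intervals. The solid line marks equal levels and the dotted line 1.5-fold, and Phlda3 lies to the right of the dotted line in all 4 splits, which in old corticotroph-like cells rests on 1 cell.

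The rest of the pathway showed no common direction between the ages. Among 25 other p53 targets measured in somatotroph-like cells, 5 were lower in the old library (Bbc3, Ei24, Eda2r, Psrc1 and Zfp365) and 3 higher (Pmaip1, Fas and Tnfrsf10b), beside 9.21% and 11.8% of all genes, with a median log2 ratio of -0.05 beside 0.03. Btg2, Rps27l and Trp53inp1, the most abundant of them there, had ratios of 0.909, 0.877 and 0.735. In corticotroph-like cells 2 of 20 were lower (Pmaip1 and Btg2) and 5 higher (Tigar, Xpc, Polk, Perp and Apaf1), beside 7.92% and 11.8%, in macrophage-like cells 1 of 19 was lower (Bbc3) and 6 higher, beside 4.28% and 22.1%, and in lactotroph-like cells 2 of 20 were lower (Ei24 and Abhd4) and 3 higher (Fas, Polk and Plk3), beside 8.57% and 18.4%. The medians in these 3 classes were 0.154, 0.266 and -0.05, beside 0.08, 0.23 and 0.12 over all genes. The RNA of p53 itself, Trp53, lay under 1.5-fold in 9 of the 10 classes and was lower in monocyte-like cells, at 52.01 and 23.01 CPM. Of 12 genes of p53 and its regulators, 1 was lower in somatotroph-like cells (Chek1), 0 of 11 passed 1.5-fold in corticotroph-like cells, 2 of 11 were higher in macrophage-like cells (Atm and Trp53bp1) and 3 of 11 in lactotroph-like cells (Mdm4, Usp7 and Ep300), where 22.1% and 18.4% of all genes were higher. Hipk2, Ep300 and Usp7, the most abundant in somatotroph-like cells, stood there at 94.34 and 92.75, 83.27 and 95.03, and 78.07 and 93.55 CPM.

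For the integrated stress response, the other known input to Gdf15, 0 of 18 genes were lower and 2 higher (Nupr1 and Slc7a11) in somatotroph-like cells, where Atf3, Atf4 and Ppp1r15a had ratios of 1.07, 0.906 and 1.18, and 11.8% of all genes were higher. In macrophage-like cells, where Gdf15 was lower, 7 of 16 genes were higher and 1, Atf3, lower, beside 22.1% and 4.28%. In lactotroph-like cells 2 of 15 were lower (Phgdh and Vldlr) and 3 higher (Trib3, Atf3 and Ppp1r15a), beside 8.57% and 18.4%, and in corticotroph-like cells 1 of 17 was lower (Ppp1r15a) and 5 higher (Trib3, Chac1, Phgdh, Vldlr and Eif2ak4), beside 7.92% and 11.8%. The summed level of the 18 genes was 6211 CPM young and 4525 CPM old in macrophage-like and 3708 and 2881 CPM in corticotroph-like cells. It was 1385 and 1920 CPM in lactotroph-like and 2614 and 2638 CPM in somatotroph-like cells. Of the receptor for Gdf15, the gene Gfral had 1 UMI in old somatotroph-like cells and 0 in the other classes compared, and its partner Ret was highest of the 10 classes in stem cell-like cells, at 7.505 and 7.528 CPM.

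The genes whose levels were most like those of a member over the 20 values of class and library, by Pearson correlation of log2(CPM + 5) among 7605 genes, are given as a description, since the values share libraries and totals. For Cdkn1a they were Ndel1 at 0.896, H2afz at 0.833 and Tubb6 at 0.823. For Sesn2 they were Mcub at 0.891, Tbx19 at 0.854, the corticotroph lineage factor, and Khdrbs2 at 0.834. Plk2 was most like Lmo2 at 0.881, Myo1c at 0.850 and Chst15 at 0.838, and Gdf15 most like Cst3 at 0.811, Tbc1d9 at 0.781 and Ptpro at 0.780. Phlda3 was most like Plpp3 at 0.899, Xpc at 0.883, itself a p53 target, and Insr at 0.864. For Zmat3 they were Fam98a at 0.933, Nisch at 0.933 and Pcmtd2 at 0.929, for Ccng1 Rfx3 at 0.883, Rnf128 at 0.819 and Lpin1 at 0.811, and for Gadd45a Ppp3ca at 0.862, Acer2 at 0.819 and Tspan13 at 0.814. For Mdm2 they were Ndel1 at 0.842, Rap1gap2 at 0.814 and BC005537 at 0.803, and for Bax Ppp1ca at 0.784, Ybx1 at 0.748 and Mgat2 at 0.743. No member was among the 3 closest genes of another member.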

How the data were processed

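Single-cell libraries of 2 ages, each pooling 10 glands, were measured in droplets. The deposited values are raw UMI counts per gene and barcode with no cell calling; per the submitters' processing notes they were made with Cell Ranger 6.0.2 on GRCm39, while the file headers name Cell Ranger 4. Per the labels' protocols, stored tissue was dissociated enzymatically and strained, and erythrocytes were removed.

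Barcodes with at least 2000 UMIs, at least 500 genes and at most 15% mitochondrial UMIs were kept with scanpy 1.11.5. Scrublet called 0% of young and 0.031% of old barcodes, so the highest doublet scores were removed at 0.8% per 1000 barcodes, which took 679 young and 766 old barcodes. Both libraries were clustered together (3000 variable genes without the 35 p53 list genes, 40 components, 15 neighbours, Leiden resolution 1). Clusters were named by marker lists for 21 classes, and a cluster correlating at 0.95 or more with near-empty droplets was called free RNA. Counts were summed per class and library. Ratios carry exact conditional Poisson intervals and shares Clopper-Pearson intervals (scipy 1.17.1). The ratio intervals were checked only on simulated Poisson class sums. These hold no cells, so the check says nothing about UMIs clustered in few cells. Where a share is 0, the limit of 3 counts applies. With 1 library per age no test was made.

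Named genes are the 10 members, the 3 list genes of most UMIs in somatotroph-like cells, list genes behind counts of 5 or fewer, and the 3 genes most like each member among those of at least 50 CPM in some class. Genes named in longer counts were chosen after their values were seen. The members, lists and tests were chosen with earlier results of these data known. Alternatives covered cell filters, doublets, clustering, scaling, free RNA, thinning, fold and count limits.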

Additional observations from a re-analysis of the deposited data

Results flagged for a closer look

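For 3 genes the old library was lower past 1.5-fold in some classes and higher in others, from few UMIs or cells in most of the higher ones. With 1 library per age none of these differences between classes was tested. The ratio of old over young for Cdkn1a was 0.6497 in somatotroph-like, 0.4703 in corticotroph-like, 0.5546 in macrophage-like and 0.3087 in lactotroph-like cells, and 2.751 in pituicyte-like cells, where the young library had 6 UMIs. At equal depth 5.77% of young and 7.69% of old pituicyte-like cells held a Cdkn1a UMI. For Phlda3 the ratio was 0.4354 in somatotroph-like, 0.3946 in lactotroph-like and 0.2671 in endothelial cell-like cells, and 2.12 in corticotroph-like and 1.794 in macrophage-like cells. The corticotroph-like value was 1.335 without the top cell and 0.8959 without the 5 top cells of each library, and the macrophage-like one had an interval of 0.692 to 4.71 and stood at 0.6363 with doublets kept. For Gdf15 it was 0.2175 in macrophage-like cells, and 1.855 in somatotroph-like, 4.304 in corticotroph-like, 10.73 in lactotroph-like and 2.699 in monocyte-like cells. The somatotroph-like value was 0.9998 with clusters given their young weights and the lactotroph-like one 0.4342 with each library clustered alone. The monocyte-like one was 1.236 with a mitochondrial limit of 25%.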

How the results depend on the processing

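No paired analysis was possible because the result comes from no test, with 1 library per age, and no replicate could be left out. Of the ratios of shares of cells, taken for pairs past 1.5-fold, 126 stayed within their interval and 15 moved. Changes of direction were not counted for these ratios. Some above 1 in the main setting fell below it in an alternative, beside the Gdf15 ranges given above. Their lowest values were 0.601 for Zmat3 and 0.901 for Phlda3 in macrophage-like, and 0.416 for Phlda3 in corticotroph-like cells. They were 0.738 for Ccng1 in B cell-like, 0.845 for Gdf15 in monocyte-like and 0.910 for Cdkn1a in pituicyte-like cells. Of the member ratios over all alternatives 1518 stayed within their counting interval, 44 moved and 5 reversed, the cause of which was not tested. The reversed ratios were 0.8959 for Phlda3 in corticotroph-like cells without the 5 top cells, 0.6363 for Phlda3 in macrophage-like cells with doublets kept, 1.159 for Phlda3 in endothelial cell-like and 0.4342 for Gdf15 in lactotroph-like cells with each library clustered alone, and 0.9998 for Gdf15 in somatotroph-like cells with clusters given their young weights. The ratio of Phlda3 with over without a Cdkn1a UMI reversed to 0.6958 in old corticotroph-like cells without the top cell. Without the 5 top cells the young pituicyte-like cells had no Cdkn1a, Phlda3 or Plk2 UMI left and gave no ratio. Removing the top cells or shared barcodes, and the alternatives to the split by Cdkn1a, were chosen after seeing the data. Some groupings lacked the monocyte-like, the corticotroph-like or the lactotroph-like class in a library and gave no value there. Depth limits the small classes most, where members often had under 20 UMIs. Counts that moved by over 1.5 times follow, as numbers of genes past the fold. With all UMIs as the total, immediate early genes higher numbered 6 in lactotroph-like and 7 in somatotroph-like and immediate early genes lower numbered 0 in somatotroph-like. There stress response genes higher numbered 6 in lactotroph-like and 5 in somatotroph-like and stress response genes lower numbered 2 in corticotroph-like. There members higher numbered 2 in somatotroph-like and members lower numbered 2 in corticotroph-like and 1 in somatotroph-like. There other p53 targets higher numbered 2 in corticotroph-like, 5 in lactotroph-like and 8 in somatotroph-like and other p53 targets lower numbered 1 in lactotroph-like and 2 in somatotroph-like. There p53 regulators higher numbered 1 in somatotroph-like and p53 regulators lower numbered 1 in corticotroph-like. With a minimum of 50 UMIs of a gene, stress response genes higher numbered 3 in corticotroph-like, 4 in macrophage-like and 1 in somatotroph-like and stress response genes lower numbered 0 in lactotroph-like. There pairs of member and class higher numbered 7 and members higher numbered 0 in B cell-like, 1 in corticotroph-like, 0 in macrophage-like and 0 in pituicyte-like. There members lower numbered 1 in B cell-like and 1 in endothelial cell-like and other p53 targets higher numbered 1 in lactotroph-like and 1 in somatotroph-like. There other p53 targets lower numbered 1 in corticotroph-like. With a minimum of 1 UMI of a gene, stress response genes lower numbered 2 in corticotroph-like and 4 in lactotroph-like and pairs of member and class higher numbered 21. There members higher numbered 4 in B cell-like, 3 in the class of T or NK cells, 2 in endothelial cell-like, 4 in monocyte-like and 2 in pituicyte-like and members lower numbered 1 in the class of T or NK cells and 4 in endothelial cell-like. There other p53 targets higher numbered 8 in corticotroph-like and 10 in macrophage-like and other p53 targets lower numbered 5 in lactotroph-like and 3 in macrophage-like. There p53 regulators lower numbered 1 in macrophage-like. With no fold limit, pairs of member and class higher numbered 47 and pairs of member and class lower numbered 38. There members higher numbered 4 in B cell-like, 4 in the class of T or NK cells, 4 in corticotroph-like, 4 in endothelial cell-like, 5 in lactotroph-like, 5 in macrophage-like, 8 in monocyte-like, 4 in pituicyte-like, 3 in somatotroph-like and 6 in stem cell-like and members lower numbered 2 in the class of T or NK cells, 6 in corticotroph-like, 5 in lactotroph-like, 5 in macrophage-like, 4 in pituicyte-like, 7 in somatotroph-like and 4 in stem cell-like. With a 2-fold rule, pairs of member and class lower numbered 7 and members higher numbered 0 in endothelial cell-like, 1 in macrophage-like and 0 in somatotroph-like. There members lower numbered 0 in B cell-like, 1 in macrophage-like and 1 in somatotroph-like. With a minimum of 4000 UMIs per barcode, members higher numbered 0 in B cell-like, 1 in macrophage-like and 3 in pituicyte-like and members lower numbered 2 in corticotroph-like. With free RNA of 500 to 900 UMIs subtracted, members higher numbered 3 in B cell-like and members lower numbered 1 in B cell-like and 2 in corticotroph-like. With the mean over cells, members higher numbered 2 in B cell-like and members lower numbered 3 in pituicyte-like. With the 5 cells of most UMIs of the gene left out, members higher numbered 0 in B cell-like, 0 in corticotroph-like, 2 in endothelial cell-like, 0 in lactotroph-like, 1 in macrophage-like and 2 in pituicyte-like and members lower numbered 3 in corticotroph-like. With the cell of most UMIs of the gene left out, members higher numbered 1 in corticotroph-like and 1 in macrophage-like and members higher with a Cdkn1a UMI numbered 1 in old corticotroph-like. There members lower numbered 1 in B cell-like and other p53 targets higher with a Cdkn1a UMI numbered 3 in old somatotroph-like. With each library clustered alone, members higher numbered 2 in lactotroph-like, 0 in somatotroph-like and 1 in stem cell-like and members lower numbered 1 in B cell-like and 5 in lactotroph-like. With no doublet removal, members higher numbered 1 in macrophage-like and 2 in pituicyte-like and members lower numbered 1 in the class of T or NK cells and 1 in stem cell-like. With Malat1-poor barcodes left out, members higher numbered 1 in macrophage-like and 2 in pituicyte-like and members higher with a Cdkn1a UMI numbered 4 in old somatotroph-like and 2 in young corticotroph-like. There members lower numbered 1 in B cell-like and other p53 targets higher with a Cdkn1a UMI numbered 7 in old corticotroph-like and 1 in young corticotroph-like. With clusters given their young weights, members higher numbered 1 in macrophage-like and 0 in somatotroph-like. With a minimum of 1000 UMIs per barcode, members higher numbered 2 in pituicyte-like and members lower numbered 1 in B cell-like and 1 in the class of T or NK cells. With cells thinned to 1000 UMIs, members higher with a Cdkn1a UMI numbered 5 in old somatotroph-like and other p53 targets higher with a Cdkn1a UMI numbered 9 in old corticotroph-like, 3 in old somatotroph-like and 0 in young corticotroph-like. With another random seed, members higher with a Cdkn1a UMI numbered 4 in old somatotroph-like and 2 in young corticotroph-like and other p53 targets higher with a Cdkn1a UMI numbered 8 in old corticotroph-like, 3 in old somatotroph-like and 1 in young corticotroph-like. With a mitochondrial limit of 10%, members higher with a Cdkn1a UMI numbered 2 in young corticotroph-like and members lower numbered 2 in corticotroph-like. There other p53 targets higher with a Cdkn1a UMI numbered 1 in young corticotroph-like. With the median ratio as the scale, members lower numbered 3 in corticotroph-like and 4 in macrophage-like. With a mitochondrial limit of 25%, members lower numbered 1 in pituicyte-like. With cells thinned to 4000 UMIs, other p53 targets higher with a Cdkn1a UMI numbered 1 in young corticotroph-like.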
